A study of Caenorhabditis elegans with 2 samples.

Results

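HMG-4 peaks of moderate strength that lie outside protein-coding genes and away from their starts are described here, from chromatin immunoprecipitation and sequencing of early embryos of Caenorhabditis elegans. Members were the peaks of the list pooled over both replicates that had a signal value of at least 60, overlapped no peak of the authors' reproducible list (made with the irreproducible discovery rate, IDR), and had a summit in no protein-coding gene and more than 500 bp from every protein-coding 5' end. The signal value is the strength that the authors' peak caller gave to each peak, called with a control alignment, on a scale that is not stated. Of the 30000 pooled peaks, 14752 reached 60 and 12186 of these overlapped no IDR peak, and are called moderate peaks below. The rule kept 2594 of them, of which 357 had their summit within 500 bp downstream of a protein-coding 3' end (the 3' end subset) and 2237 did not (the intergenic subset). The other moderate peaks comprised 2767 at protein-coding 5' ends and 6825 in gene bodies.

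There was 1 group, mixed-sex early embryos of strain OP660 at 0 hours, obtained by egg bleaching, with 2 biological replicates. The worms had the unc-119 allele tm4063 and the transgene wgIs660, in which hmg-4 is fused to TY1, EGFP and 3xFLAG and which also holds unc-119(+). The labels name 1 transgenic line, so the 2 replicates share its insertion. The precipitation used an antibody against the fluorescent protein on whole embryos, so cell types cannot be told apart. Read depth is unknown, because peak lists do not hold it.

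HMG-4 is a homolog of SSRP1, which together with SPT16 forms FACT, a histone chaperone that loosens and restores nucleosomes as polymerases pass. RNA polymerase II runs on beyond the site where the transcript is cleaved, so the DNA just downstream of an annotated 3' end is still transcribed before termination. Sequence between protein-coding genes also holds enhancers and genes for non-coding RNAs, some of them made by RNA polymerase III.

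The pooled signal value chose the members, so their strength is a description and supports nothing. It had a median of 78.2 and reached 129.7, below the lowest value of the IDR list, 129.8. Just inside the limit were peaks of 60.008, 60.023 and 60.034, and just outside it, with the rest of the rule met, were peaks of 59.991, 59.987 and 59.968. The deposited q-value was 0.05 or lower for 669 members (25.8%), beside 21.6% of all moderate peaks. No statistical test was run, since there is no second group and peaks are not replicates. Intervals are exact 95% binomial intervals that cover counting over peaks, genes or windows only.

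Sequences are shown for the strongest 3' end members as examples of the DNA beyond a gene. The 200 bp at the summits of the 3 strongest that lie in no annotated UTR, among those on chromosomes II to V and X, are given on the plus strand of WBcel235 (ce11), from RefSeq, with GAGAGA or its reverse complement TCTCTC in capitals.
fce-2, chrV:20431507-20431706: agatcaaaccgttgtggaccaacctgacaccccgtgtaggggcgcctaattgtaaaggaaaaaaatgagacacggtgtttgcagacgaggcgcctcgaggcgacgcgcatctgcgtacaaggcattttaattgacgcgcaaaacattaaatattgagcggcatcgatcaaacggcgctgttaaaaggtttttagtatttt
C25H3.1, chrII:5701695-5701894: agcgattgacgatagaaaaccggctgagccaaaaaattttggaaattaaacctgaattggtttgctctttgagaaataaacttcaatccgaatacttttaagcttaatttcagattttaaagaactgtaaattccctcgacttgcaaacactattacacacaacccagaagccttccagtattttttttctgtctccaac
K04B12.2, chrII:14433843-14434042: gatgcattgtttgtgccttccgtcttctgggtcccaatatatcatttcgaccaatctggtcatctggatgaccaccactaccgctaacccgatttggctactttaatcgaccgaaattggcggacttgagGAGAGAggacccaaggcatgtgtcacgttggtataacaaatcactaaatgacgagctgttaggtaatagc
The window downstream of fce-2 was 47.0% GC and that of K04B12.2 46.5%, while that of C25H3.1 was lower in GC than both and nearer to the territory's median of 32.5%. Of these 3, K04B12.2 alone held the hexamer.

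At least 1 copy of the hexamer was in 30.2% of the intergenic windows, against 19.1% at all moderate peaks and 10.4% of the intergenic territory. The windows shown next were selected for holding the hexamer, and are the 3 strongest such intergenic members under those conditions, named by the nearest protein-coding gene.
pmt-2, chrV:4638710-4638909: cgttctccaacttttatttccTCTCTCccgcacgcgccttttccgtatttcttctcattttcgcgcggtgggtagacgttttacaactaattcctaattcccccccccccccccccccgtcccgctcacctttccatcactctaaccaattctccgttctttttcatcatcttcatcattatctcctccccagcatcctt
egl-27, chrII:6833915-6834114: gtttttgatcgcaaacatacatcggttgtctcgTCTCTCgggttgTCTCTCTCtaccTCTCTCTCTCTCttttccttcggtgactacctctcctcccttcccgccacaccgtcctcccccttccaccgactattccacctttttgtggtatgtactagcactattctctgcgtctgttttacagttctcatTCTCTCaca
F31F7.2, chrV:6270237-6270436: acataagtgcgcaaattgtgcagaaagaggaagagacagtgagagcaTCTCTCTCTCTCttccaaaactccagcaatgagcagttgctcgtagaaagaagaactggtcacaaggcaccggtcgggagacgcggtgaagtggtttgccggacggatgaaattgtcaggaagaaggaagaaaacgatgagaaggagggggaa
The egl-27 window had 32 bases in either hexamer, in several separate runs, against 12 bases in the F31F7.2 window and 6 in the pmt-2 window. The peak near egl-27, which encodes a homolog of metastasis-associated chromatin proteins, also lies by the non-coding genes C04A2.13, C04A2.10 and C04A2.12.

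Most members had a peak in each replicate's own list. An overlapping peak was present in both lists for 1913 of 2594 members (73.7%, interval 72.0 to 75.4), beside 74.4% of all moderate peaks. It was present only in replicate 1 for 301 members (11.6%, beside 14.3%), only in replicate 2 for 343 (13.2%, beside 10.1%), and in neither for 37 (1.43%). The share supported by both was thus near that of moderate peaks in general, and it was almost the same in the 3' end subset (73.4%) and the intergenic subset (73.8%). Where both lists held a peak, the signal value was higher in replicate 1 for 1326 of 1913 members (69.3%), with a median ratio of replicate 1 to replicate 2 of 1.27 (5th to 95th percentile 0.597 to 2.42). These values are not corrected for read depth, which is unknown, and the pooled value was near the sum of both replicates' values (median 0.988 of the sum), so a ratio between replicates is a description of the lists only. Replicate 1 values had a median of 47.5 there and replicate 2 values a median of 36.8. For moderate peaks at 5' ends and in gene bodies the median ratio was 1.24. Requiring summits within 100 bp of each other lowered the share supported by both to 52.3%.

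**Figure D1:**
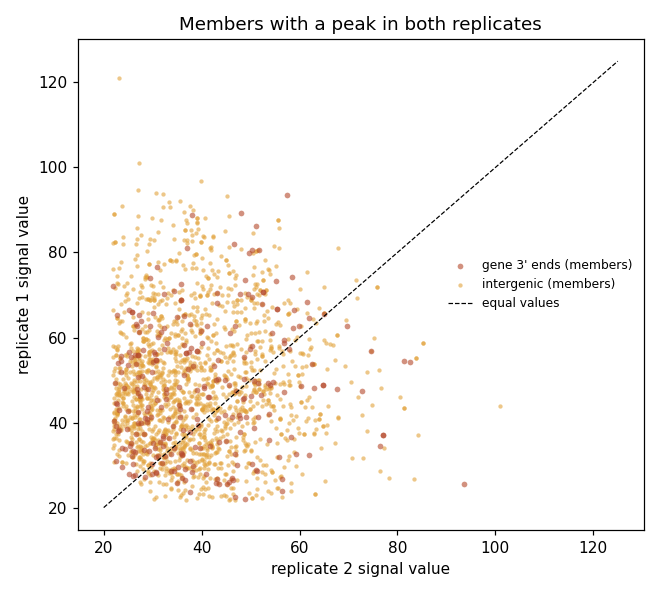
Signal value in replicate 1 (vertical axis) against replicate 2 (horizontal axis) for the 1913 members with an overlapping peak in both lists, 1 point per member, with the dashed line at equal values. Most points (69.3%) lie above the line, and points of the 3' end subset lie among those of the intergenic subset.

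Replicate support differed between the X chromosome and the autosomes. On X, 105 of 435 intergenic members (24.1%, interval 20.2 to 28.4) had a peak in replicate 2 only, against 192 of 1802 (10.7%, interval 9.27 to 12.2) on the autosomes. The same held for other moderate peaks, with 222 of 1308 on X (17.0%) against 661 of 8284 on the autosomes (7.98%). In the 3' end subset the shares were 8 of 44 on X (18.2%, interval 8.19 to 32.7) and 38 of 313 on the autosomes (12.1%, interval 8.74 to 16.3), whose intervals overlap. Members found only in replicate 2 also had a lower GC content, with a median of 43.5%, against 46.5% for those found only in replicate 1.

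**Figure D2:**
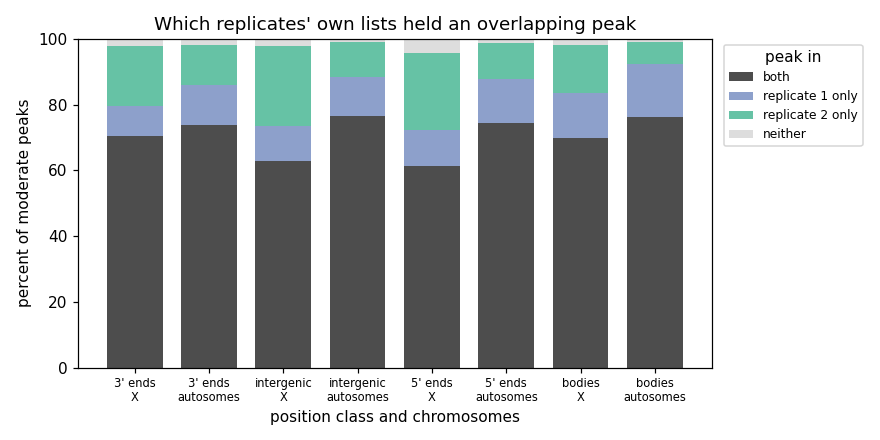
Share of moderate peaks (vertical axis, percent) with an overlapping peak in both replicates' lists, in 1 or in neither, by position class and for X and the autosomes. The share in replicate 2 only is larger on X than on the autosomes in every class, for instance 24.1% against 10.7% in the intergenic subset.

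A few members overlapped a peak of high value in 1 replicate's list and none in the other. An overlap of 1 bp was enough, so the summit of the replicate's peak can lie away from that of the member. The highest in replicate 1 alone was near pat-3, the beta integrin gene, on chromosome III at 3914774 to 3915213, with 115 in replicate 1, no peak in replicate 2 and 123 pooled. Next came a peak near the deubiquitinase gene duo-3 with 108 in replicate 1 and 62.8 pooled, then one nearest to C46C2.7 with 105 and 91.5, and one near ces-2, a regulator of cell death, with 101 and 114. The highest in replicate 2 alone was on chromosome IV at 8253019 to 8253458, by the snoRNA gene H09I01.2 and the non-coding H09I01.4, with no peak in replicate 1, 285 in replicate 2 and 82.9 pooled. It was followed by a peak near apa-2, an adaptor subunit gene of endocytosis, with 164 in replicate 2 and 64.2 pooled, and by those nearest to F56F4.8 with 148 and 66.1 and to C07F11.2 with 98.8 and 103. In these cases, chosen for a high value in 1 replicate, that value was above or close to the pooled one. Members found in 1 replicate only did not show this in general. Their medians were 51.3 against 67.5 pooled for replicate 1 only, and 42.9 against 77.1 pooled for replicate 2 only.

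Across chromosomes, members were densest on I, II and III. The comparison uses the territory, that is, the bases that meet the rule's position criteria, which came to 29.9 Mb. Members numbered 134 per Mb of territory on I, 108 on II and 134 on III, against 60.5 on IV, 62.3 on V and 71.7 on X. Chromosome X held 479 members (18.5%) and 22.4% of the territory. The X share depended on the replicate, since it was 16.6% when replicate 1's list was used alone and 23.1% when replicate 2's was. Moderate peaks in gene bodies were also denser there, with 146, 164 and 168 per Mb on I, II and III and 106, 104 and 116 on IV, V and X.

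**Figure D3:**
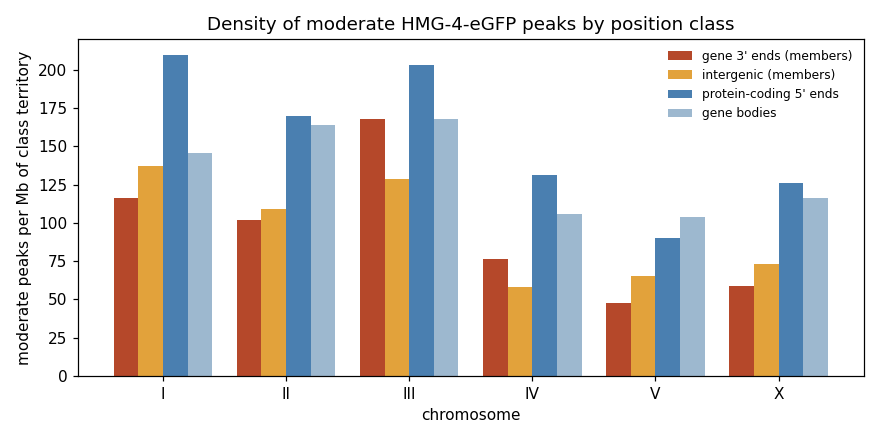
Moderate peaks per Mb of the territory of their own class (vertical axis) for each chromosome, with the 3' end and intergenic subsets left of the peaks at 5' ends and in gene bodies. Intergenic members range from 58.2 per Mb on IV to 137 on I, and 3' end members from 47.4 on V to 168 on III.

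Both subsets were unevenly spread, and so were the other moderate peaks. Those in gene bodies were densest on III (168 per Mb) and sparsest on V (104). Those at 5' ends were densest on I (209.8 per Mb) and sparsest on V (90.1). The 3' end subset was densest on III, where 75 members made 168 per Mb, and sparsest on V, where 52 members made 47.4 per Mb. The intergenic subset was densest on I, with 392 members at 137 per Mb, and sparsest on IV, with 295 members at 58.2 per Mb. Over all chromosomes, 43 members had a piRNA 5' end within 500 bp (1.66%), beside 0.990% of the moderate peaks at 5' ends and in gene bodies. Chromosome IV has the long piRNA clusters of the worm, but these members were not counted by chromosome, and some lay on I. On the autosomes, 1320 of 2115 members (62.4%, interval 60.3 to 64.5) lay in the outer parts of the chromosomes (0.25 of the length at each end), at 108 per Mb against 72.4 in the centres. The density was higher in the outer parts for I (177 against 86.2), II (123 against 92.4), III (169 against 99.8) and V (76.1 against 47.5), and about equal on IV (61.5 against 59.0). The share in outer parts was 62.2% among the other moderate autosomal peaks, and among members of 80 or more it was 57.5%.

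Immediately past gene 3' ends, members were sparse. The first 100 bp held 32 of the 357 summits, or 30.9 per Mb of territory. The density was 81.8 per Mb from 101 to 200 bp, 101 from 201 to 300 bp, 131 from 301 to 400 bp and 98.7 from 401 to 500 bp, and the median summit lay 283 bp past the 3' end. The intergenic subset as a whole had 87.2 per Mb. The first 100 bp held 8.96% of the 3' end members in the pooled list and 9.35% with replicate 1's list alone, but 15.9% with replicate 2's list alone, so this value differs with the replicate used.

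**Figure D4:**
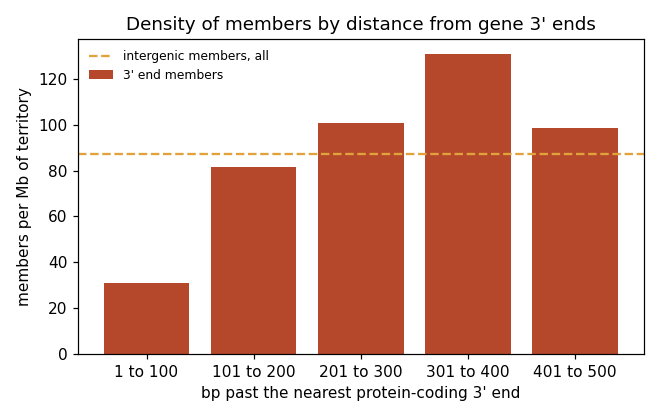
Members per Mb of territory (vertical axis) by distance of the summit past the nearest protein-coding 3' end (horizontal axis, bp), with the density of the intergenic subset as a dashed line. The bar for the first 100 bp is at 30.9 and the bar for 301 to 400 bp is at 131, against 87.2 for the intergenic subset.

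The next gene downstream was in the same direction for 244 of the 357 (68.3%, interval 63.2 to 73.1) and faced the 3' end, as a convergent pair, for 113 (31.7%). These shares were close to those of the territory, of which 64.3% was in the same direction and 35.6% convergent. Genes less than 500 bp downstream in the same direction, as within worm operons, cannot appear here because the rule keeps away from 5' ends. In the intergenic subset, density was lower between convergent genes, at 51.1 per Mb (134 summits), than between genes in the same direction, at 93.9 (1261 summits), or divergent genes, at 87.7 (837 summits). Convergent gaps made up 10.2% of the intergenic territory and held 5.99% of its members (interval 5.04 to 7.05).

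The strongest 3' end members lay behind genes of many kinds. The first was downstream of fce-2, a gene for a protease that processes prenylated proteins, on chromosome V at 20431387 to 20431826. Its signal value was 88.9 in replicate 1, 38.1 in replicate 2 and 129.5 pooled, so replicate 1 was the higher. The peak behind C25H3.1 on chromosome II at 5701575 to 5702014 had 56.8 in replicate 1, 74.5 in replicate 2 and 129 pooled, and the snoRNA gene C18A3.12 starts within 500 bp of it. Behind M01E5.4 the values were 79.9 in replicate 1 and 49.6 in replicate 2, and behind K04B12.2 they were 89.3 and 48.0. For most of these strongest members replicate 1 was thus the higher.

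Several of the next had well-known functions. The peak behind nars-1, the asparaginyl-tRNA synthetase gene, had 80.7 in replicate 1 and 50.3 in replicate 2, and the one behind the kinase gene mak-1 had 86.3 and 51.1. Behind the cyclin-dependent kinase gene cdk-2, on chromosome I at 3416310 to 3416749, the replicates were nearly equal, with 64.7 in replicate 1 and 62.0 in replicate 2. The same was true behind ucr-1, a gene of the respiratory chain, with 62.2 and 58.7. The peaks behind K12C11.7 (80.5 and 51.8) and unc-41, which acts in synaptic vesicle recycling (73.4 and 55.1), were higher in replicate 1. The other two of the 12 strongest had no peak in replicate 1. They were behind adm-4, a gene for a membrane metalloprotease, with 70.1 in replicate 2 and the tRNA genes ZK154.t4 and ZK154.t3 by the summit, and behind ctf-4, a gene named for chromosome transmission, with 42.6. All 12 had pooled values of 127 to 129.5.

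In all, 374 protein-coding genes had a 3' end member, some sharing a summit with the gene on the other side, of 11840 whose 3' flank holds any base of the territory (3.16%). For 10 genes there were 2 members, none had more, and such pairs were neighbouring summits that matched the same replicate peaks. Behind srf-3, a nucleotide sugar transporter gene, the pooled values were 123 and 87.6, with 66.8 in replicate 1 and 55.3 in replicate 2 for both. Behind top-2, which encodes DNA topoisomerase II, they were 106 and 74.0, with 37.0 in replicate 1 and 77.0 in replicate 2, and the microRNA gene mir-45 starts beside them. Other pairs were behind T28F2.2, with the tRNA gene T28F2.t1, behind nhr-3, behind the C-type lectin gene clec-72 and behind Y82E9BR.17.

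Gene groups defined by symbol differed in how often they had a 3' end member, with numbers too small for most of them to be told from the 3.16% of all genes. Small heat shock genes appeared more than once among the chaperones, of which 6 of 31 with an open 3' flank had a member (19.4%, interval 7.45 to 37.5). These were hsp-16.2 (62.6 in replicate 1, 29.5 in replicate 2), hsp-16.41 (70.3 and 32.3), the convergent pair hsp-16.48 and hsp-16.49, which share 1 peak (48.0 and 67.7), the chaperonin subunit gene cct-4 (56.1 and 30.4) and dnj-30 (39.5 and 39.3). The dnj-30 peak lay nearer to lin-17. Some of the hsp-16 genes are near-identical copies, so the placing of reads at them can be uncertain, which was not tested. Translation factors had 3 of 9 (33.3%, interval 7.49 to 70.1), namely eif-2alpha (82.1 in replicate 1, 46.6 in replicate 2), the eIF4E gene ife-2 (47.8 and 32.7) and the eIF5A gene iff-1 (69.0 in replicate 1, no peak in replicate 2). No member lay behind any of 33 ribosomal protein genes (0%, interval 0 to 10.6) or 16 germline and maternal genes (0%, interval 0 to 20.6).

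Histone genes had 3 of 61 (4.92%, interval 1.03 to 13.7), with the linker histone gene his-24 at 54.5 in replicate 1 and 81.3 in replicate 2, and his-9 and his-25 at a shared peak with no value in replicate 1 and 53.3 in replicate 2. Core histone genes are near-identical copies too. The list of collagen and cuticle genes had 6 of 112 (5.36%, interval 1.99 to 11.3). Of these only dpy-7 and sqt-3 encode collagens, while dpy-21, dpy-27 and dpy-28 act in X chromosome dosage compensation and dpy-18 encodes a prolyl hydroxylase. The strongest was behind dpy-18, with 65.5 in replicate 1 and 65.0 in replicate 2, so the replicates were nearly equal there. The list named for lineage regulators had 10 of 270 (3.70%, interval 1.79 to 6.71). It takes in whole families by symbol, such as all nhr and ceh genes, whatever their role. Its strongest was nhr-48, with 47.4 in replicate 1 and 72.7 in replicate 2. The list named for chemoreceptors, which are used mostly in sensory neurons, had 8 of 867 (0.923%, interval 0.399 to 1.81). Among them were srz-25 (48.9 and 53.9) and srx-120 (57.0 and 28.0). This list takes in genes whose symbol begins with sr, so both counts can include genes that are no chemoreceptors, such as srf-3. F-box and MATH-BATH genes had 2 of 291 (0.687%, interval 0.0833 to 2.46). In the remaining lists, 5 of 178 C-type lectin genes, 3 of 102 neuropeptide genes, 1 of 52 cytochrome P450 genes, 1 of 14 muscle genes (pat-4), 1 of 11 splicing genes (prp-39) and 1 of 10 tubulin and actin genes (act-2) had one.

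Genes with a 3' end member often had another HMG-4 peak on the same gene. A pooled summit of 60 or more, IDR peaks included, lay within 500 bp of the 5' end or in the body for 224 of 374 (59.9%, interval 54.7 to 64.9), against 3142 of 11466 genes with an open 3' flank and no member (27.4%, interval 26.6 to 28.2). An IDR summit at the 5' end was present for 35 (9.36%) against 379 (3.31%). Genes with a member were longer, with a median of 2814 bp against 1975 bp. Within length classes the shares were 35.6% against 15.6% under 2 kb, 57.8% against 29.4% from 2 to 5 kb, and 91.6% against 61.1% at 5 kb or more. The share was 59.5% with replicate 1's list alone and 54.5% with replicate 2's alone. Peaks that overlap the 3' end member itself were not left out of the count. Some of the other summits can thus belong to the same broader region, which genes without a member cannot have. Chromosomal position and the length of open flank were not held equal. The part of all these in the difference was not tested.

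Non-coding genes lay at many members. The summit was inside a non-coding gene or pseudogene, or within 500 bp of its 5' end, for 792 of 2594 members (30.5%, interval 28.8 to 32.3), against 1041 of 9592 moderate peaks at 5' ends and in gene bodies (10.9%, interval 10.2 to 11.5). Unclassified non-coding RNA genes were the largest group, with a 5' end near 490 members (18.9%, against 8.24%). Pseudogenes followed, with a 5' end near 92 members (3.55%, against 0.521%). The summit lay inside a pseudogene for 164 members (6.32%, against 0.146%). The rule removes protein-coding genes from the space around a summit but not other genes, and its part in these differences was not tested. In the intergenic subset 32.2% of summits had such a gene, and in the 3' end subset 20.2%.

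A tRNA, snoRNA, snRNA, microRNA or rRNA 5' end was within 500 bp of 84 summits (3.24%, interval 2.59 to 3.99), against 1.72% of the moderate peaks at 5' ends and in gene bodies. The members' share was 4.97% with replicate 2's list alone and 2.85% with replicate 1's alone. The 84 comprised 46 beside tRNA genes, 20 beside microRNA genes and 19 beside snoRNA genes, with 1 in more than 1 class. None were at snRNA or rRNA genes, which allows at most 0.142% by the upper bound of the interval. Such genes were rare among all moderate peaks too, with 21 of 12186 (0.172%) at snRNA genes and none at rRNA genes. Peaks overlapping the IDR list are not in these counts. The median pooled value was 82.3 at the 84 members and 77.5 at members with no non-coding gene. Among all moderate peaks the medians were 84.5 and 75.3. The rule used this value to choose members, so the comparison is a description only. Beside the tRNA genes already named, Y54G2A.t5 had 68.4 in replicate 1 and 61.5 in replicate 2, and Y65A5A.t4 had 73.6 and 71.5, close to equal. The strongest snoRNA case of the intergenic subset was R166.10 near mnk-1, with 84.6 in replicate 1 and 50.5 in replicate 2, and W01H2.11 followed with 52.3 and 76.2. At microRNA genes, mir-57 had no peak in replicate 1 and 36.6 in replicate 2, whereas mir-73 and mir-74 shared a peak of 60.7 and 67.7 and mir-8196.1 had 46.0 and 71.9, so support in both lists was not general.

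The strongest intergenic members had pooled values of 129 to 129.7, and their nearest genes were again of many kinds. The first was on X at 2707516 to 2707955, 1877 bp upstream of igcm-3, an immunoglobulin-type cell adhesion gene, with 88.0 in replicate 1 and 39.1 in replicate 2. The peak 3547 bp from pmt-2, which acts in phosphocholine synthesis, had 65.7 in replicate 1 and 65.0 in replicate 2. The peak 5997 bp from Y39E4B.6 had 58.6 and 85.3, and was the only one of the 12 with values in both lists and replicate 2 higher. That near egl-27 differed most between replicates, with 121 in replicate 1 and 23.1 in replicate 2. Near goa-1, the Go alpha subunit gene, and near C43G2.3 there was no peak in replicate 1, and replicate 2 had 60.7 and 56.1. The rest of the 12 were near F31F7.2, Y39A1A.9, snf-1, R10E4.3, pitp-1 and C18F10.7, with 66.9 to 96.8 in replicate 1 and 39.8 to 63.9 in replicate 2. In that range replicate 1 was the higher at every site.

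Sequence at the summits differed from that of the territory. The 200 bp windows at intergenic members had a median of 45.5% GC, against 33.5% over the 128302 windows of the intergenic territory. At 3' end members it was 44.0%, against 32.5% over 21202 windows. This was shared by the other moderate peaks, for example at 46.0% against 36.0% in gene bodies. It depended on the replicate, with a median over members of 45.5% with replicate 1's list alone and 41.5% with replicate 2's list alone, both above the territory. Soft-masked, that is repetitive or low-complexity, bases made up a mean of 24.4% at intergenic members against 40.1% in their territory, and 34.1% at 3' end members against 41.2%. Moderate peaks at 5' ends (23.1% against 31.8%) and in gene bodies (20.7% against 34.5%) were also lower. Within strata of GC content, both subsets had more masked bases than their territory below 45% GC, and fewer at 45% or more. At 35 to 40% GC the means were 40.5% against 31.5% for intergenic members and 53.1% against 32.6% for 3' end members. At 45 to 50% GC, 3' end members had 23.3% against 28.1%. The effect of base composition on recovery of reads was not tested.

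The GA hexamer was more frequent at intergenic members than at other moderate peaks taken over all chromosomes. The hexamer GAGAGA was searched on both strands, so that TCTCTC counts too. It was in 676 of 2237 intergenic windows (30.2%, interval 28.3 to 32.2), against 10.4% of the territory, and in 65 of 357 windows at 3' end members (18.2%, interval 14.3 to 22.6), against 8.15%. At moderate peaks at 5' ends it was in 19.6% (territory 11.2%) and in gene bodies in 15.3% (territory 9.43%). Among windows of 40 to 45% GC it was in 29.1% of intergenic members against 17.4% of the territory, and among those of 45 to 50% GC in 37.1% against 21.7%. For 3' end members of 40 to 45% GC the shares were 22.9% (interval 15.7 to 31.5) against 14.6% (interval 13.1 to 16.1), whose intervals overlap. The intergenic share was 28.3% with replicate 1's list alone and 25.9% with replicate 2's alone. It was 29.0% on X (interval 24.7 to 33.5) against 30.5% on the autosomes (interval 28.4 to 32.7). On X the moderate peaks at 5' ends held it in 29.3% (interval 24.4 to 34.4), so the difference from 5' ends was seen on the autosomes, where those peaks had 18.3% (interval 16.7 to 19.9), and not on X. A match describes the letters in the window and not a bound factor.

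**Figure D5:**
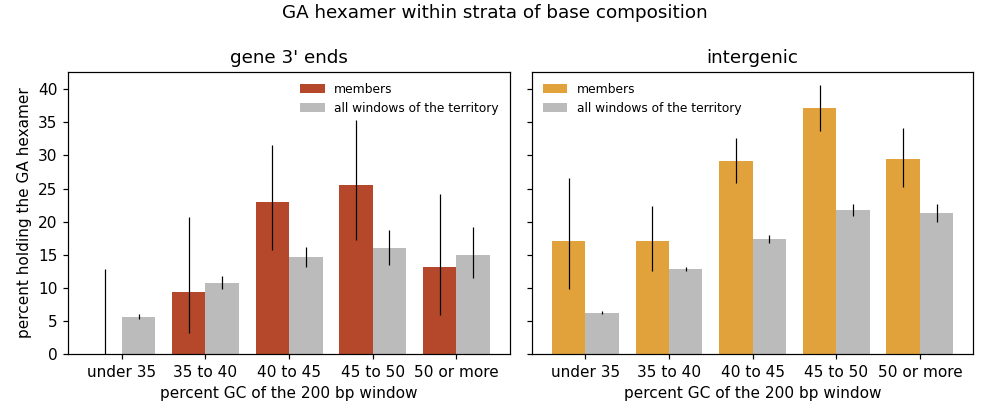
Percent of 200 bp windows that hold GAGAGA or TCTCTC (vertical axis) by percent GC (horizontal axis), for members beside all windows of their territory, with exact 95% binomial intervals as error bars. In the intergenic subset the members' bar is the higher in every stratum, for instance 37.1% against 21.7% at 45 to 50% GC, whereas at 3' ends the intervals overlap in each stratum.

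AATAAA, the letters of the polyadenylation signal, was searched on either strand. It was in 25.8% of windows at 3' end members (interval 21.3 to 30.6) against 49.8% of windows of that territory. At intergenic members it was in 19.4% (interval 17.7 to 21.1) against 40.4%. The 3' end subset thus held it more often than the intergenic subset, as its territory did. Moderate peaks at 5' ends held it in 26.9% (interval 25.2 to 28.6) against 41.8% of their territory, so the higher share was not particular to 3' ends. Within strata of GC content, the shares at 3' end members and in their territory were 37.7% against 39.6% at 35 to 40% GC, 27.1% against 27.3% at 40 to 45%, 16.3% against 16.4% at 45 to 50% and 13.1% against 7.23% at 50% or more. A run of 6 T or 6 A (TTTTTT on either strand) was in 49.6% of 3' end member windows against 69.6% of the territory. Within strata it was in 81.5% against 79.2% under 35% GC, 71.7% against 60.7% at 35 to 40%, 48.3% against 48.3% at 40 to 45%, 39.8% against 37.2% at 45 to 50% and 34.4% against 19.1% at 50% or more. The lower share of TTTTTT over all windows was thus not seen within the strata, where the members' shares were equal or higher, with 27 to 118 members in each.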

How the data were processed

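The authors deposited 4 peak lists on ce11 in the narrowPeak layout: 1 for each of 2 replicates, 1 pooled and 1 thresholded by IDR. Per the file headers, each rests on alignments set against a control alignment. Aligner, peak caller and IDR cut-off were not given in the sources used here. Deposited signal values rank peaks, and the deposited −log10 q-value was used only to count peaks at a q-value of 0.05 or lower. Chromatin was sheared to 200 to 800 bp, per the labels.

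Summits were set against Ensembl release 115 genes (WBcel235), of which 19973 are protein-coding, by gene-level ends and with windows of 500 bp, and genes without a name of their own took the RefSeq symbol at identical coordinates. A 3' end member was assigned its nearest 3' end for its distance, its orientation and its name. Counts of genes and gene lists took every gene whose 3' end lay within 500 bp, so 1 peak can count for more than 1 gene. A member took the strongest overlapping peak (at least 1 bp) of each replicate's list, so neighbouring members can share a value. No sequence from the first chromosome is printed. Territory windows of 200 bp tile each chromosome and are classed by their centre. Only counts, shares, medians and exact 95% binomial intervals were computed (Python 3.11.15, pandas 2.3.3, SciPy 1.17.1), and the classing was tested on simulated data.

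Members, lists, motifs and alternatives were chosen with earlier results of these data known. Named members are the 12 strongest of each subset, the strongest found in 1 replicate only, at small RNA genes or paired behind 1 gene, and those at the signal limit. Genes named from the gene lists, and the intergenic sequences shown for the hexamer, were chosen after their values were seen. Alternatives varied the signal threshold, distances, matching, summit or midpoint, merging of overlapping members and each replicate left out in turn, when the other replicate's 14752 strongest peaks stood in for the pooled list.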

Additional observations from a re-analysis of the deposited data

How the results depend on the processing

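No paired analysis was possible because there is only 1 group. Under 17 alternatives, 61 of 93 values stayed within the 95% interval of the value reported (or within 1.5 times the number of members) and 32 did not, and the cause was not tested except where the construction shows it. With a signal threshold of 50, 65.1% of members had a peak in both replicates, median GC was 44.5%, the median replicate ratio was 1.22 and the share in outer parts was 64.5%. With 80 there were 1205 members, fewer by construction, of which 20.1% were on X, 83.2% had a peak in both replicates and 32.9% were at a non-coding gene, with a median GC of 46.0%, a ratio of 1.34 and 57.5% in outer parts. A 5' distance of 200 bp gave a convergent share of 25.7%, and 1000 bp gave 37.8% and a 3' end share of 12.5%; the distance removes places before a next gene in the same direction. The 3' window set the 3' end share, 4.16% with 200 bp and 23.1% with 1000 bp (convergent share 26.6%), against 13.8% with 500 bp. Support by both replicates was 68.9% with 50% reciprocal overlap and 52.3% with summits within 100 bp. Small RNA genes were at 2.24% of members with 200 bp and 4.32% with 1000 bp. A GC window of 400 bp gave 42.2%.

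Leaving out 1 replicate gave 13.3% to 15.3% at 3' ends, 16.6% to 23.1% on X, 2.85% to 4.97% at small RNA genes, a median GC of 41.5% to 45.5% and 56.0% to 65.6% in outer parts. Of the values added after seeing the data, the hexamer share was 25.9% to 28.3%, the share in the first 100 bp past a 3' end was 9.35% to 15.9%, and the share of genes with another peak was 54.5% to 59.5%. Read depth is unknown, so no limit of detection can be given.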

Other observations

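Members were unevenly packed along the chromosomes. In 1005 bins of 100 kb the median was 2.00 members, 229 bins had none, and 19 bins had 10 or more and together held 216 members. The fullest bins held 14 each, on chromosome I from 11900001 to 12000000, on II from 4000001 to 4100000 and on IV from 3800001 to 3900000. Most of their members were intergenic, with 2, 1 and 2 of the 14 at gene 3' ends in that order. Of all members, 265 overlapped another member, so some are summits of 1 broader region.

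The nearest IDR summit was a median of 12675 bp from members, against 14322 bp from the moderate peaks at 5' ends and in gene bodies. Of the 2594 members, 126 had one within 1 kb and 789 within 5 kb. In the 3' end subset the median distance was 13630 bp and in the intergenic subset 12482 bp.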
